A study of Mus musculus with 9 samples.

Results

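Pttg1, the gene for securin, was picked out by its symbol as 1 of 54532 genes in a table of cortex RNA levels, and it was picked because its levels were known to differ between strains, so its own values are given as a description with no test. The table holds 3 male mice each of 3 inbred strains aged 8 to 12 weeks: B6 (C57BL6/J, on which the reference genome is based), C3H (C3H/HeJ, also a classical inbred strain) and WSB (WSB/EiJ, a wild-derived strain). The labels name no treatment, transgene or deletion in any of them. The study mapped a locus for infarct volume after a stroke to chromosome 8, in crosses of B6 with the other strains. Pttg1 lies outside that locus, on chromosome 11. The cortex libraries ask which genes differ in level between those parent strains. Levels are in FPKM, which divides the reads of a gene by its length and by the size of the library, and 1 library was made from each mouse. Throughout, values after ± are the SD over the 3 mice of a strain. Both C3H and WSB were set against the same 3 B6 mice, so these comparisons share their controls.

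Securin binds separase, the protease that cuts the cohesin rings holding sister chromatids together, and keeps it inactive until all chromosomes are attached to the spindle. The anaphase-promoting complex, a ubiquitin ligase, then marks securin for destruction through a short degradation motif called the destruction box, and separase is released. Pttg1 was first named as a gene of pituitary tumours, is known for its high level in dividing cells and testis, and its product has also been linked to transcription and to DNA repair. Most neurons of the adult cortex no longer divide.

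Pttg1 (ENSMUSG00000020415) is on the minus strand of chromosome 11, at 43420250 to 43426251 in GRCm38. Its GENCODE M21 annotation lists 10 transcripts, 7 of them protein-coding, and the deposited table holds 0 other genes that overlap it on either strand. The coding sequence of transcript Pttg1-202 lies in 5 exons from 43420332 to 43425670 without the stop codon, and holds 199 codons. Its first 100 codons are shown because they carry the motif through which securin is destroyed.

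Pttg1-202 codons 1 to 100: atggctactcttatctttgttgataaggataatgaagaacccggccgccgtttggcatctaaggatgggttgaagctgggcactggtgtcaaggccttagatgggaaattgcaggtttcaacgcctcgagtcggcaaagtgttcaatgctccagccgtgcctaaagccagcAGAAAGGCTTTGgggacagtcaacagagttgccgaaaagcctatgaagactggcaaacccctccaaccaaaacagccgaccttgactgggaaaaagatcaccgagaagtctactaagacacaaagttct

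The capitals mark codons 58 to 61, the destruction box by which the anaphase-promoting complex recognises securin, found by translating the sequence and searching for an arginine and a leucine with any pair of residues between them. A search of the whole coding sequence against all other annotated mouse transcripts gave a match in 1 other gene, Fzd3, over 43 bases at 86.0% identity. No near-identical copy that could share its reads was found among them.

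Pttg1 was a moderately abundant transcript in the cortex of B6 mice and close to the limit of detection in both other strains. It had 11.4, 11.6 and 11.03 FPKM in the 3 B6 mice, from 408, 468 and 470 reads. In the 3 C3H mice it had 0.242, 0.232 and 0.258 FPKM, from 9, 9 and 10 reads. In the 3 WSB mice it had 0.150, 0.116 and 0.109 FPKM, from 5, 4 and 4 reads. The lowest B6 mouse stood 42.8-fold above the highest C3H mouse and 73.4-fold above the highest WSB mouse, so B6 did not overlap either strain, as held for 28.9% of all genes tested between C3H and B6 and for 26% between WSB and B6. In bulk tissue, fewer cells with the transcript and less transcript per cell cannot be told apart. Whether reads of C3H and WSB were lost for differing from the reference genome, which is based on B6, was not tested.

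The mean was 11.3 ± 0.3 FPKM in B6, 0.244 ± 0.013 in C3H and 0.125 ± 0.022 in WSB. B6 was thus 46.5-fold higher than C3H by the mean FPKM and 90.6-fold higher than WSB. An exact 95% interval on the summed reads, which were 1346 in B6, 28 in C3H and 13 in WSB, ran from 32.0 to 70.2-fold for B6 over C3H and from 53.0 to 171-fold for B6 over WSB. These intervals cover counting error only. In B6 the level was higher than that of 91.9% of all genes in the table, against 68.3% in C3H and 63.6% in WSB. These shares count genes at 0 reads: only 23125 to 24104 of the 54532 genes had any read in a library. From the highest mean down, Pttg1 had the rank 4424 in B6, 17287 in C3H and 19850 in WSB.

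The order of the strains was B6, then C3H, then WSB. The C3H values lay 1.95-fold above those of WSB by the mean, and the 3 mice of each did not overlap, as held for 28.6% of genes tested between them. The exact 95% interval of this ratio, on reads summed over the 3 mice of each strain and for counting error only, ran from 0.982 to 4.12-fold. Both strains were above 3 reads in every mouse, a level worth 0.0704 to 0.0902 FPKM of Pttg1 depending on the library. The spread between mice of one strain was below counting error. The coefficient of variation was 2.51% in B6, where counting error gives 4.72%, and 5.26% in C3H and 17.6% in WSB, where it gives 32.7% and 48.0%.

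**Figure D1:**
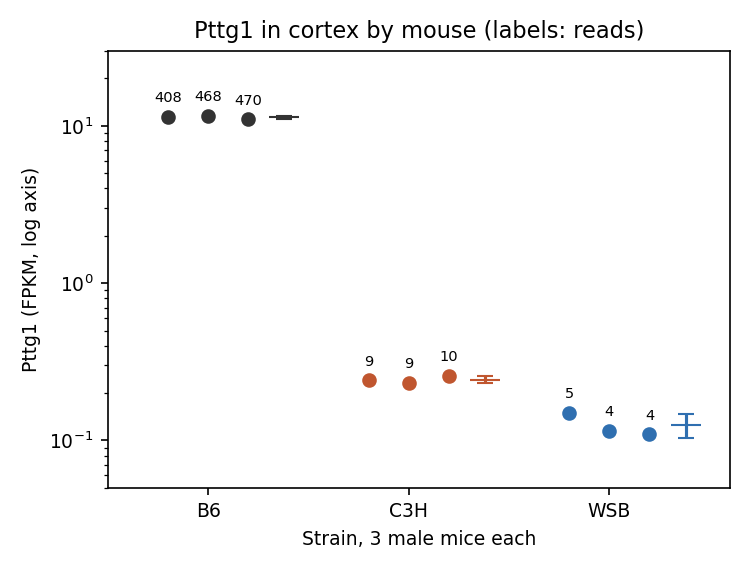
Pttg1 level in the cortex of each mouse, in FPKM on a log axis, with 1 point per mouse, the number of reads above it, and the mean ± SD of 3 mice to the right of each strain. The B6 mice lie near 11 FPKM, the C3H mice near 0.24 and the WSB mice between 0.109 and 0.150.

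On the scale used to compare all genes, log2(FPKM + 0.1), Pttg1 differed by -5.67 (SE 0.14) between WSB and B6 and by -5.06 (SE 0.12) between C3H and B6. The 0.1 added to each value understates the change of a gene this low in 2 of the strains. The difference between WSB and C3H was -0.62 (SE 0.33). Among 20746 genes compared between WSB and B6, Pttg1 had the rank 4 by size of decrease, after Ly6c1, mt-Tg and Myoc. Among 20602 genes compared between C3H and B6 it had the rank 3, after mt-Tg and Gm25772. The median difference over all genes was 0.00 in both comparisons.

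The neighbours of Pttg1 on chromosome 11 were examined for a drop in C3H and WSB like its own. No gene tested within 1 Mb was called, which for 8 to 10 genes is near the shares over all genes. Of the 25 other genes annotated there, 9 had 0 reads in all libraries and 10 averaged 0.1 FPKM or more, enough to be tested, for at least 1 pair of strains. By limma with Benjamini-Hochberg adjustment over all genes, 0 of 10 passed an adjusted p of 0.05 between WSB and B6, against 5.9% of all genes tested (2.81% higher, 3.09% lower). Between C3H and B6 0 of 8 passed, against 4.64% (2.38% higher, 2.26% lower), and between WSB and C3H 0 of 10 passed, against 5.74% (2.61% higher, 3.13% lower). At an unadjusted p under 0.05 the numbers were 3, 4 and 3, against 20.4%, 24.1% and 23.8% of all genes tested. Limma with voom weights on the recovered reads also called 0 in each comparison, against 7.43%, 7.22% and 8.53%. Values of WSB and B6 did not overlap in 4 of the 10 genes, beside 26% of all genes tested, and those of C3H and B6 in 3 of 8, beside 28.9%. Within 2 Mb, 1 of 16 genes passed between C3H and B6, against 4.64%. Of these 16, 7 had an unadjusted p under 0.05, against 24.1%, and the median log2 difference was -0.35. Between WSB and B6, 0 of 18 passed within 2 Mb, against 5.9%. Of these 18, 3 had an unadjusted p under 0.05, against 20.4%, and the median was 0.07.

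Slu7 (43433744 to 43447981, plus strand), which encodes a splicing factor, is the nearest neighbour and starts 7.49 kb beyond the end of Pttg1 on the opposite strand. It had 14.5, 14.9 and 15.4 FPKM in B6, 14.3, 16.1 and 14.6 in C3H and 17.1, 16.9 and 16.7 in WSB. Its level was much the same in B6 and C3H, whose mice overlapped, and a little higher in WSB. The log2 difference was 0.18 (SE 0.06) between WSB and B6 and 0.01 (SE 0.08) between C3H and B6, and neither passed (adjusted p = 0.158 and 0.968, limma).

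C1qtnf2, whose product is a secreted relative of the complement protein C1q, lies 48.0 kb away on the same side. It had 1.35 ± 0.32 FPKM in B6, 0.829 ± 0.221 in C3H and 1.39 ± 0.14 in WSB. Ccnjl, a cyclin J relative 103 kb away, had 1.21 ± 0.46 FPKM in B6, 1.23 ± 0.25 in C3H and 1.03 ± 0.19 in WSB. Neither gene passed in any comparison, and in both the C3H and B6 mice overlapped. Gm12150, annotated as antisense to Ccnjl and 153 kb away, had means of 0.0398 FPKM in B6, 0.147 in C3H and 0.244 in WSB, from 0 to 3 reads a mouse.

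On the other side the nearest gene tested was Atp10b, which encodes a lysosomal lipid-transporting ATPase and ends 158 kb before Pttg1 begins. Its highest value was 0.205 FPKM, with a mean of 0.180 ± 0.029 in B6, 0.103 ± 0.034 in C3H and 0.107 ± 0.031 in WSB. The B6 mice were above all mice of both other strains, as with Pttg1, but the differences of -0.44 (SE 0.37) for WSB and -0.47 (SE 0.37) for C3H on the log2 scale did not pass (adjusted p = 0.567 and 0.465, limma). Gm12144, an antisense transcript 188 kb away within the span of Atp10b, had 0.0400 ± 0.0384 FPKM in B6 and 0.241 ± 0.124 in WSB. Whether reads were counted by strand is not given in the sources used here, so reads of these antisense transcripts and of the genes they lie in cannot be told apart.

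Next on that side among the genes described here comes Gabrb2, which encodes a subunit of a receptor for the inhibitory transmitter GABA. Gabrb2, whose span reaches just past 1 Mb, had 7.09 ± 1.504 FPKM in B6, 4.30 ± 1.96 in C3H and 6.31 ± 0.89 in WSB. The strains overlapped, and it did not pass in any comparison (adjusted p = 0.680 for WSB and B6, 0.177 for C3H and B6 and 0.235 for WSB and C3H, limma).

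Further out within 1 Mb, Pwwp2a, a chromatin protein, had means from 3.12 to 4.02 FPKM, Ttc1, a co-chaperone, from 23.5 to 27.8 FPKM and Adra1b, the alpha-1B adrenergic receptor, from 5.81 to 8.22 FPKM. Among the 6 neighbours with a mean of at least 1 FPKM, log2 differences over all 3 comparisons went from -0.65 to 0.70, beside -5.67 and -5.06 for Pttg1. Some calls appeared under other settings, with C3H above B6. After a correction for the GC content of genes in each library, Ttc1 was higher in C3H than in B6 by 0.33 (SE 0.06, adjusted p = 0.0240, limma). Without C3H replicate 2, Adra1b was higher in C3H than in B6 by 0.68 (SE 0.16, adjusted p = 0.0448, limma) and the difference between WSB and C3H was -0.54 (SE 0.11, adjusted p = 0.0354, limma). Calls over all genes also rose under these settings. The GC correction gave 1168 between C3H and B6, beside 956 without it. Without C3H replicate 2, 11.2% of all genes were called between C3H and B6 and 9.71% between WSB and C3H.

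Just past the window, at 1028 kb, Ublcp1 was called, and it is named here after its values were seen. It encodes a phosphatase of the nuclear proteasome. It had 17.7, 18.7 and 18.7 FPKM in B6, 11.1, 13.5 and 11.7 in C3H and 21.3, 19.5 and 20.7 in WSB. C3H was below all mice of both other strains. The log2 difference was -0.61 (SE 0.09, adjusted p = 0.0121, limma) between C3H and B6 and 0.76 (SE 0.09, adjusted p = 0.00487, limma) between WSB and C3H, while that between WSB and B6 was 0.16 (adjusted p = 0.247, limma). The call against B6 was lost without B6 replicate 2 or 3 and without C3H replicate 1 or 3. Unlike Pttg1, Ublcp1 was not lower in WSB than in B6.

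**Figure D2:**
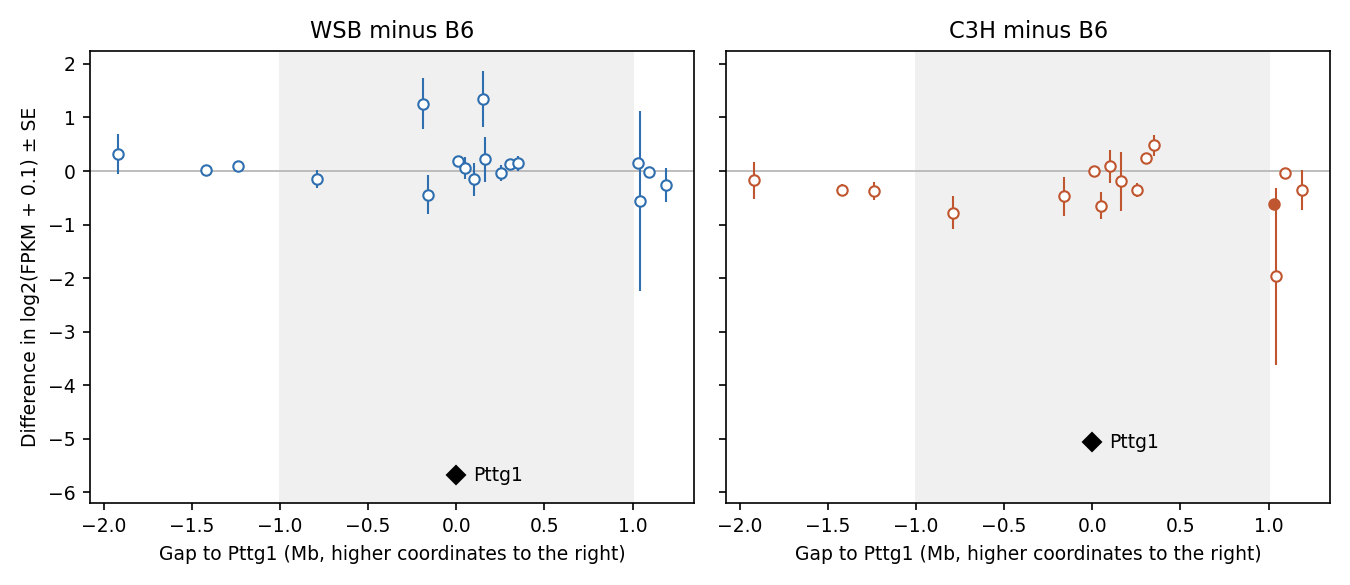
Difference in log2(FPKM + 0.1) from B6 in WSB (left) and C3H (right), with its SE, against the gap in Mb between each tested gene within 2 Mb and Pttg1, with the 1 Mb window in grey and genes called by limma filled. Pttg1 stands alone at -5.67 and -5.06, while all other tested genes lie between -1.97 and 1.34 and the filled point, Ublcp1, is at -0.61.

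The partners of securin in chromosome segregation were examined in lists chosen for this gene. Few of them were called with all mice in the fit, and more without C3H replicate 2. Of 42 genes of separase and cohesin, the anaphase-promoting complex and the spindle checkpoint, 37 were tested against B6. Between WSB and B6, 1 passed and it was lower, against 5.9% of all genes, and the median log2 difference of the 37 was 0.06 beside 0.00 over all genes. Between C3H and B6, 0 of 37 passed with limma, against 4.64%, with a median of -0.04, while 17 had an unadjusted p under 0.05, against 24.1%, and voom weights called 4, against 7.22%. Between WSB and C3H, 1 of 36 passed and was lower, against 5.74%. Without C3H replicate 2, limma called 8 between C3H and B6, 3 higher and 5 lower, against 11.2% of all genes, and 6 between WSB and C3H, against 9.71%.

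Espl1, which encodes separase, the enzyme that securin inhibits, was barely detected: 0.163 ± 0.045 FPKM in B6, 0.112 ± 0.050 in C3H and 0.125 ± 0.071 in WSB. In B6 cortex securin transcript therefore stood at 11.3 FPKM beside 0.163 FPKM for separase, a comparison per length. The strains overlapped for Espl1, with log2 differences of -0.27 (SE 0.42) for WSB and -0.33 (SE 0.40) for C3H, and it did not pass (adjusted p = 0.784 and 0.641, limma).

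With all mice in the fit, limma called no subunit of the cohesin ring itself. Rad21, the subunit that separase cuts, had means of 29.1 FPKM in B6, 28.6 in C3H and 29.8 in WSB. Smc3, another subunit, had 8.46 in B6, 6.16 in C3H and 7.06 in WSB. Its C3H mice were all below the B6 mice, by -0.47 on the log2 scale (SE 0.17, adjusted p = 0.160, limma). The median of the 14 separase and cohesin genes tested was 0.00 between WSB and B6 and -0.35 between C3H and B6. None of the 14 passed against B6 by limma. At an unadjusted p under 0.05 there were 0 in WSB, against 20.4% of all genes, and 7 in C3H, against 24.1%. Voom weights called 0 and 1, against 7.43% and 7.22%. With the GC trend removed the C3H median was -0.17, and without C3H replicate 2 it was -0.50. Without that library 4 were called, Smc3, Pds5b, Wapl and Esco1, against 11.2% of all genes. The part of GC content and of that library in the C3H value was not tested.

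All 18 genes of the anaphase-promoting complex list were tested against B6. By limma 0 were called, against 5.9% of all genes for WSB and 4.64% for C3H. An unadjusted p under 0.05 was seen in 4 for WSB, against 20.4%, and in 7 for C3H, against 24.1%. Voom weights called 0 and 1, against 7.43% and 7.22%. Without C3H replicate 2, Anapc11 and Anapc13 were called between C3H and B6, against 11.2% of all genes. The summed level of the 18 genes was 185 to 197 FPKM over the B6 mice, 206 to 226 over the C3H mice and 202 to 217 over the WSB mice. The B6 mice were thus below all others in this sum, which held for no other pathway or cell type list, and the sum was not tested. Fzr1, the activator that keeps the complex working in cells that have left the cell cycle, had 19.5 ± 1.5 FPKM in B6, 23.0 ± 1.1 in C3H and 20.3 ± 0.8 in WSB. Cdc20, the activator used in mitosis, was much lower, at 0.649 ± 0.084 FPKM in B6, 1.09 ± 0.29 in C3H and 1.04 ± 0.27 in WSB. Its log2 differences of 0.58 in WSB and 0.65 in C3H, opposite in sign to those of Pttg1, did not pass (adjusted p = 0.228 and 0.164, limma).

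Among the spindle checkpoint genes, which delay the destruction of securin until all chromosomes are attached, Bub3 fell in WSB. It had 10.2, 10.5 and 10.6 FPKM in B6, 11.5, 10.6 and 11.3 in C3H and 7.26, 7.77 and 8.02 in WSB. WSB was below all mice of both other strains, and C3H was not below B6. The log2 difference was -0.44 (SE 0.07, adjusted p = 0.0162, limma) between WSB and B6, and this call was lost without B6 replicate 2 or 3 or without WSB replicate 1. Bub1b, which encodes the checkpoint kinase BubR1, had the same order as Pttg1 at far lower levels: 0.732, 0.255 and 0.692 FPKM in B6, 0.138, 0.0483 and 0.145 in C3H and 0.0281, 0.108 and 0.0768 in WSB. It rests on 22 to 63 reads per B6 mouse, 4 to 12 per C3H mouse and 2 to 8 per WSB mouse. The B6 mice were above all others, but the log2 differences of -1.88 (SE 0.44) in WSB and -1.59 (SE 0.44) in C3H did not pass (adjusted p = 0.0555 and 0.0904, limma), and with voom weights both did. Mad1l1, of the same list, went the other way, with every C3H and WSB mouse above every B6 mouse. Its means were 4.42 FPKM in B6, 6.34 in C3H and 6.36 in WSB. The log2 differences of 0.51 (SE 0.15) in WSB and 0.52 (SE 0.13) in C3H did not pass (adjusted p = 0.105 and 0.0706, limma). Voom weights called Mad1l1 between C3H and B6, as did limma without C3H replicate 2. Bub1b and Mad1l1 are named after their values were seen.

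Markers of dividing cells were low in every strain, and 0 were called. The summed level of 21 mitotic genes was 6.40 to 10.02 FPKM over the B6 mice, 6.62 to 7.66 over the C3H mice and 6.61 to 8.00 over the WSB mice, so the strains overlapped. None of the 19 tested between WSB and B6 was called by limma, against 5.9% of all genes, with 0 at an unadjusted p under 0.05, against 20.4%. None of the 17 tested between C3H and B6 was called by limma, against 4.64%, with 2 at an unadjusted p under 0.05, against 24.1%. Voom weights also called 0 in each, against 7.43% and 7.22%. In lists this short the shares passing an adjusted p come to about 1 gene. Mki67, the proliferation marker Ki-67, had 0.198 ± 0.036 FPKM in B6, 0.105 ± 0.029 in C3H and 0.126 ± 0.064 in WSB. Top2a, the topoisomerase of dividing cells, had 0.282 ± 0.181 FPKM in B6, 0.207 ± 0.103 in C3H and 0.204 ± 0.061 in WSB. In B6 cortex Pttg1 alone, at a mean of 11.3 FPKM, was above the summed level of all 21 in any mouse.

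Genes whose products bind or are linked to securin gave 1 call in C3H and 0 in WSB among 8 tested against B6 by limma, against 4.64% and 5.9% of all genes. At an unadjusted p under 0.05 there were 2 in C3H, against 24.1%, and 1 in WSB, against 20.4%. Voom weights called 1 and 0, against 7.22% and 7.43%. Pttg1ip, which encodes a protein that binds securin and carries it to the nucleus, had 15.9 ± 0.5 FPKM in B6, 17.1 ± 0.7 in C3H and 16.3 ± 0.5 in WSB. Its log2 differences of 0.03 and 0.10 from B6 did not pass (adjusted p = 0.858 in WSB and 0.426 in C3H, limma). Xrcc5, which encodes the Ku80 subunit of DNA end joining, fell in C3H, from 9.14, 8.93 and 9.37 FPKM in B6 to 5.66, 6.04 and 5.59, and had 9.18, 9.56 and 8.16 in WSB. The C3H mice were below all others. The difference between C3H and B6 was -0.66 on the log2 scale (SE 0.08, adjusted p = 0.00415, limma).

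**Figure D3:**
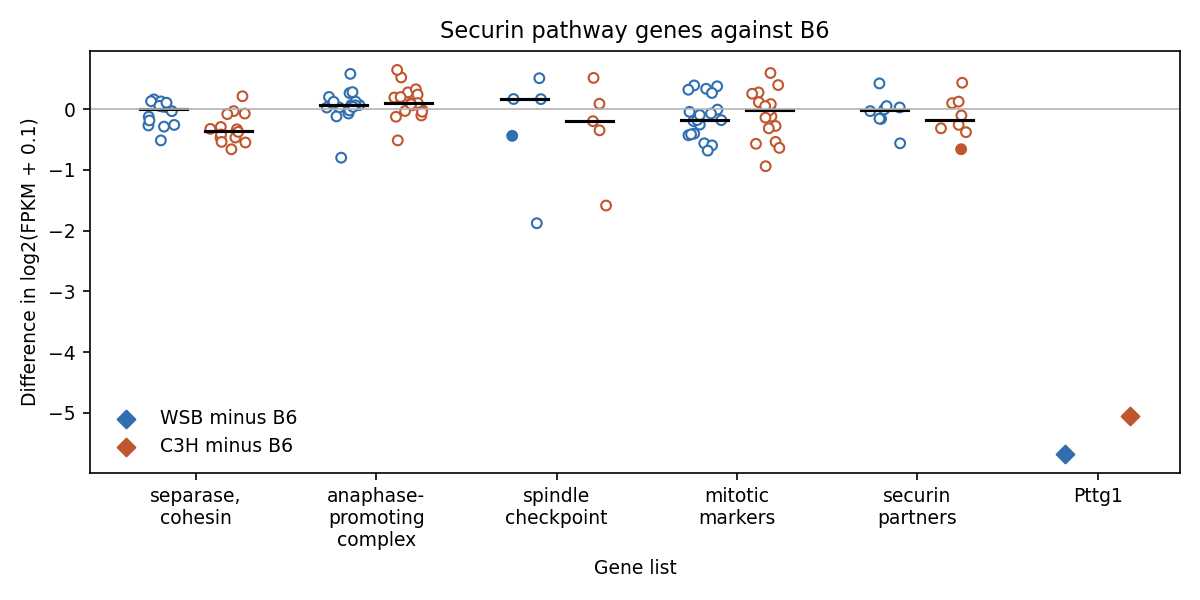
Difference in log2(FPKM + 0.1) from B6 for each tested gene of the 5 pathway lists, in WSB (blue) and C3H (orange), with genes called by limma filled, list medians as black bars, and Pttg1 as diamonds. The lowest list gene, Bub1b, is at -1.88 and -1.59, and Pttg1 lies at -5.67 and -5.06.

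The genes most like Pttg1 were named by the Pearson correlation of log2(FPKM + 0.1) over the 9 mice, over the 13009 genes that averaged 1 FPKM or more. The mice fall into strains, so this measures how closely a gene shares the step from B6 to the other strains, not covariation between mice, and it is a description with no test. None of the 8 highest lies on chromosome 11. The share of that chromosome among the genes compared was not counted, so this is no result about the surroundings of Pttg1. Acp1, a small phosphatase, was the closest with r = 0.999, and had 17.3 ± 0.3 FPKM in B6, 7.38 ± 0.35 in C3H and 6.78 ± 0.15 in WSB. Like Pttg1, it was lowest in WSB, but its drop from B6 was far smaller, at -1.34 and -1.22 on the log2 scale.

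The other genes with the highest correlation were Rnps1, mt-Tg, Atp6v0c, Aldh7a1, Rps3a1, Hmgn2 and Tdg, with r from 0.992 to 0.994. Atp6v0c, a membrane subunit of the proton pump of acidic organelles, had 48.1 ± 1.2 FPKM in B6, 5.45 ± 0.36 in C3H and 5.11 ± 0.52 in WSB. Rps3a1, a ribosomal protein gene, had means of 311 FPKM in B6, 58.6 in C3H and 51.1 in WSB. Tdg, a DNA repair glycosylase, had 7.38 in B6, 1.76 in C3H and 1.81 in WSB. The transfer RNA gene mt-Tg, on the mitochondrial genome, had 25 to 39 reads in B6 and 0 in every C3H and WSB mouse. Ribosomal protein genes and Hmgn2 have many processed copies, so their levels are uncertain if reads were split among copies.

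The 4 genes with the lowest correlation mirrored Pttg1, with r from -0.997 to -0.994. Eif3j2, a translation initiation factor gene, had 0.286 ± 0.057 FPKM in B6, 5.83 ± 1.04 in C3H and 7.70 ± 0.36 in WSB. Rpl3-ps1 and Gm28438 are annotated as pseudogenes, whose reads may be shared with their parent genes, and Gm20075 is annotated as protein-coding and had 1 to 5 reads in a B6 mouse. In these 4 genes every B6 mouse was below every other mouse, which follows from how they were chosen.

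**Figure D4:**
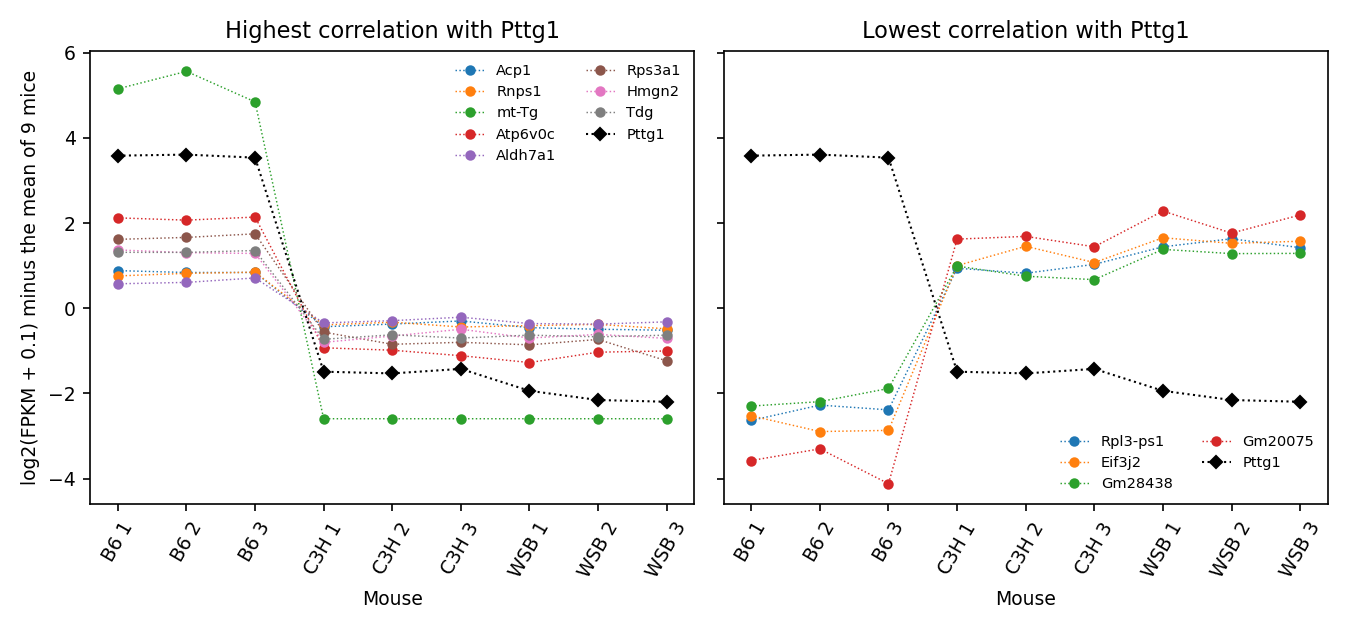
log2(FPKM + 0.1) minus its mean over the 9 mice for the 8 genes with the highest (left) and the 4 with the lowest (right) correlation with Pttg1, which is drawn in black, with 1 point per mouse and dotted lines that only guide the eye. All of them step between B6 and the other strains, and on the left mt-Tg alone steps further than Pttg1.

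The libraries held 16317439 to 21562429 reads on genes. The tissue label was checked by 6 markers of cortical excitatory neurons, whose sum was 593 to 896 FPKM over all mice, while 6 pituitary hormone genes summed to 1.08 to 11.8 FPKM. Choroid plexus markers ranged from 64.4 to 762 FPKM and striatal markers from 77.0 to 432 FPKM between mice. The sum of red blood cell genes was 632 to 1010 FPKM for C3H mice, 249 to 329 for WSB mice and 217 to 254 for B6 mice. That of oligodendrocyte genes was 427 to 617 FPKM for WSB mice, 734 to 989 for C3H mice and 784 to 982 for B6 mice. In 0 of the 8 cell type lists was the B6 range apart from both other strains.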

How the data were processed

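RNA of 9 cortex libraries, 1 per mouse, was analysed from the FPKM values deposited by the authors, who trimmed reads with Cutadapt and counted them on genes with HTSeq. The labels also name STAR. Versions, the genome build and the strand setting are not given in the sources used here. Of 54532 identifiers, 53499 had the same coordinates in GENCODE M21 (GRCm38). FPKM times gene length was a whole multiple of 1 step per library (100% of values, tolerance 0.01), which gave the reads. Pttg1, the gene lists and the tests were chosen with earlier results of these data known. Genes were named by rule: the nearest 4 tested on each side, genes called within 1 Mb or in the pathway lists, 6 pathway genes and Gabrb2 whatever their values, and the 8 highest and 4 lowest correlations with Pttg1.

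Strains were compared 2 at a time with limma 3.58.1 in R 4.3.3 (two-sided, eBayes with a mean trend) after adding 0.1 FPKM and taking log2. Genes averaging under 0.1 FPKM were left out, p-values were adjusted by Benjamini-Hochberg, and 0.05 was the limit. The method was tested on simulated data. Alternatives were adding 1 or 0.01 instead, keeping all genes or those over 1 FPKM, voom weights, all 3 strains in one fit, removal of each library's GC trend (lowess, span 0.3), a replicate block, windows of 0.5 and 2 Mb, and leaving out each mouse. Same-numbered mice did not deviate together (correlations from -0.16 to 0.04). Chi-square per gene between mice of one strain was 7.87 or more, so no library was a duplicate. Labels do not say that mice came from separate litters. Similarity was searched with blastn 2.17.0. Some genes that the naming rule takes are not reported here.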

Additional observations from a re-analysis of the deposited data

Results flagged for a closer look

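In 3 genes near or linked to Pttg1 the differences of WSB and C3H from B6 were unequal, by the limma test between WSB and C3H with adjustment over all genes. They were 1 of 18 genes tested within 2 Mb, 1 of 36 segregation genes and 1 of 8 securin partners. Of the mitotic markers, 0 of 17 were called. Over all genes tested the share was 5.74%, so these few calls are no trait of the lists. Ublcp1, 1028 kb from Pttg1, was higher in WSB than in C3H by 0.76 on the log2 scale (SE 0.09, adjusted p = 0.00487, limma), and every WSB mouse was above every C3H mouse. For Bub3 the difference of WSB from C3H was -0.53 (SE 0.08, adjusted p = 0.0115, limma), a call lost without C3H replicate 1 or 3, without WSB replicate 1 and with a replicate block. Xrcc5 was higher in WSB than in C3H by 0.63 (SE 0.09, adjusted p = 0.0104, limma), a call lost without any 1 of the same 3 mice. The same test on Pttg1 is not given, because the gene was chosen for its levels.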

How the results depend on the processing

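Pttg1 kept its direction in all 3 differences under every alternative run. The mice did not overlap between strains and Pttg1 was chosen for its levels, so this adds no support for the differences. The size of the Pttg1 difference followed the value added before the log, since C3H and WSB lie near that value. Between WSB and B6 it was -3.45 with a pseudocount of 1, -6.40 with 0.01 and -6.36 with voom weights. Between C3H and B6 it was -3.31, -5.48 and -5.47, and -4.96 with the GC trend removed. Between WSB and C3H it was -0.14, -0.92 and -0.90, and a filter of 1 FPKM left Pttg1 untested there. Leaving out 1 mouse gave -5.75 to -5.62 for WSB and B6, -5.08 to -5.03 for C3H and B6, and -0.69 to -0.57 for WSB and C3H.

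No neighbour within 1 Mb was called between WSB and B6 under any alternative. Between C3H and B6 the count was 1 with a window of 2 Mb (Ublcp1), 1 with the GC trend removed (Ttc1), and 0 to 1 when leaving out 1 mouse. Between WSB and C3H it was 1 with a window of 2 Mb and 0 to 1 when leaving out 1 mouse, the 1 without C3H replicate 2 (Adra1b). Without that mouse 11.2% of all genes were called between C3H and B6 and 9.71% between WSB and C3H.

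The replicate number did not mark a pairing. With the replicate block, calls over all genes were 754 (WSB and B6), 480 (C3H and B6) and 531 (WSB and C3H), and segregation genes called were 2 and 0 in the first and last. Over all genes, in the same order, the main fit called 1224, 956 and 1182. Voom weights called 1541, 1488 and 1757, or 7.43%, 7.22% and 8.53% of genes tested. All 3 strains in one fit gave 1473, 1390 and 1682 calls, and a filter of 1 FPKM gave 946, 823 and 1019. Of 37, 37 and 36 segregation genes tested, the main fit called 1, 0 and 1. Segregation genes called between WSB and B6 were 2 with voom weights and 2 with all 3 strains in one fit. Between C3H and B6 they were 2 with a filter of 1 FPKM, 4 with voom weights and 1 in one fit, and between WSB and C3H 2, 3 and 3. Leaving out 1 mouse, the ranges were 651 to 825, 498 to 2301 and 475 to 2002 genes and 0 to 1, 0 to 8 and 0 to 6 segregation genes, in the same order. In both comparisons with C3H the highest counts came without C3H replicate 2. The cause was not tested.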
